A study of Mus musculus with 4 samples.

Results

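The genes described here are 37 genes of glycolysis and of the response to low oxygen, 24 for sugar uptake, glycolysis and the fate of pyruvate and lactate and 13 for the hypoxia response. They were taken by gene symbol from the annotation of a whole-genome Affymetrix array, and 33 of them had a probe set that could be tested, of 13023 genes tested in all. Arrays were run on 2 Klf5 KO clones of mouse embryonic stem (ES) cells, which lack the zinc finger transcription factor Klf5, and on 2 wild-type (WT) clones, 1 array per clone. The clones of both groups grew in medium containing 15% fetal bovine serum plus LIF, a cytokine that keeps mouse ES cells undifferentiated. No source used here says how Klf5 was deleted, from which parent line the clones came, at what oxygen level they were kept or whether the KO clones arose independently. The stated purpose was to find genes lower in the KO cells. Gapdh was named alone by control probe sets only, which were not tested, and Bnip3l, Eno1 and Gpi1 were not analysed here.

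Glycolysis breaks glucose down to pyruvate in the cytosol through a fixed chain of enzymes, most of them present as several isoenzymes from separate genes. Lactate dehydrogenase then turns pyruvate into lactate, or pyruvate enters the mitochondria through pyruvate dehydrogenase, which the PDK kinases inhibit. Mouse ES cells in serum and LIF use both glycolysis and respiration. When oxygen is scarce, the prolyl hydroxylases of the Egln family no longer mark HIF-1 alpha for destruction, and this factor pairs with Arnt to switch on genes for glucose uptake, glycolysis, blood vessel growth and mitophagy. HIF-1 alpha is controlled mainly at the level of protein stability, which an RNA array does not measure.

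HIF binds DNA at a short core, and ACGTG is 1 form of it. Other forms, such as GCGTG, were not searched or counted. The promoter windows of 4 genes are shown to let the lactate dehydrogenase pair, hexokinase 2 and Vegfa be compared for ACGTG alone. They are RefSeq sequences of the mouse build GRCm38.p6, from 250 bases before to 50 bases after the start, with ACGTG on either strand in capitals. For Ldha and Vegfa, which have 2 listed starts each, the upstream one is shown. Ldha is at chr7:46845554-46845853 (plus strand), Ldhb at chr6:142507908-142508207, Hk2 at chr6:82774405-82774704 and Vegfa at chr17:46032328-46032627 (minus strand for these 3).
Ldha: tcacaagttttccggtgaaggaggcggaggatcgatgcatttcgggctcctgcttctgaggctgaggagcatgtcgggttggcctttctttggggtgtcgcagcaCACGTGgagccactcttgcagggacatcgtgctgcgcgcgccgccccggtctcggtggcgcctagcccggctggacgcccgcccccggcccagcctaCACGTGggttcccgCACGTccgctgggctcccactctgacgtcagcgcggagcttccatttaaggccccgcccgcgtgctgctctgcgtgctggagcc
Ldhb: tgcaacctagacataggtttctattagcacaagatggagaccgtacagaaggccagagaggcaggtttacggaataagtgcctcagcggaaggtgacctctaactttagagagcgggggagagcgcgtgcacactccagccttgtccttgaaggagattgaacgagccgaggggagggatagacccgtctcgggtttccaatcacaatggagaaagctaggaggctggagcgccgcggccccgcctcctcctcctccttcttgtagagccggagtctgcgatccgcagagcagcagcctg
Hk2: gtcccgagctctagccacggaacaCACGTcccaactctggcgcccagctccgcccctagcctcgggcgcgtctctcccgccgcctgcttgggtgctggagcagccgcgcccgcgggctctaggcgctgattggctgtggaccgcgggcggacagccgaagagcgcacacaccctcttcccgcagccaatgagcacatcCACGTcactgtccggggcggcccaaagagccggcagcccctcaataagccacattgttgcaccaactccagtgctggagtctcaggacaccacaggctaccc
Vegfa: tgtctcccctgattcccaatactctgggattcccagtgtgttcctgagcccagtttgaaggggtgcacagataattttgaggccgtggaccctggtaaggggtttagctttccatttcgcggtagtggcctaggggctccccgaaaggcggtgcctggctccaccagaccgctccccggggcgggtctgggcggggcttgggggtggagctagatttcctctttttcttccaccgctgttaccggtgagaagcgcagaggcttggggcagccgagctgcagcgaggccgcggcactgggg
The Ldha window held the motif at 3 places, at positions -145 to -140, -48 to -43 and -34 to -30 from the start, and the first and second of these read CACGTG, the E-box core, which holds ACGTG on both strands and was counted as 1 place. The Hk2 window held it at -226 to -222 and at -52 to -48. In the windows shown for Ldhb and Vegfa ACGTG did not occur. The uncounted form GCGTG does occur in the windows shown for Ldhb and Ldha. The windows at the other start, not shown, held the motif at 0 places for Ldha and at 1 for Vegfa. Over all 32851 promoter windows of this length, 19.6% held ACGTG. It was in 18 of 36 windows of the sugar and lactate genes and in 10 of 12 windows of the hypoxia genes. No window was used for Slc2a3, Bnip3l and Ndrg1. A match of letters is a description of the sequence and not a binding site.

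Klf5 separated the arrays as labelled, with normalized intensities of 34.8 and 49.9 in KO clones 1 and 2 and of 2398.5 and 1782 in WT clones 1 and 2 on its brightest probe set. The other tested one read 82.6 and 61.0 in KO clones and 102 and 88.6 in WT clones and did not pass (adjusted p = 0.36), and no source used here gives the deleted part of the gene. Before normalization the trimmed mean intensity was 138 and 150.5 in the KO clones and 227 and 139 in the WT clones, so WT clone 1 was the brightest array. The defining ES cell genes were present in every clone: the summed intensity of 16 pluripotency markers was 42644 and 45058 in KO clones and 47051 and 46908 in WT clones, and 0 of the 16 passed (limma; 2 had an unadjusted p under 0.05). Their median log2 fold change was -0.18, 12 of the 16 were negative, and in 8 of them both KO clones read below both WT clones, which 29.7% of all genes did. Of 25 tested fibroblast and feeder cell markers, 21 rose in KO clones, beside 2.94% of all genes. The marker list was chosen with earlier results of these data known. Their summed intensity was 24346 and 25758 in KO clones and 10658 and 7729 in WT clones. In the WT clones Col6a1, Dcn and Dpt read under 16, while the lowest marker value in a KO clone was 21.0. A change in the number of cells of a type and a change in RNA per cell cannot be told apart in such bulk samples. The part of fibroblast or feeder cell RNA in any result below, higher or lower, was not tested. As a sign of RNA quality, the log2 signal of Gapdh's 3′ control probe set over its 5′ one lay between -0.33 and -0.29 in all 4 clones. That of beta-actin was 0.75 and 0.52 in KO clones and 0.48 and 0.44 in WT clones.

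Few of these genes differed between Klf5 KO and WT cells past the threshold of the test. Of 21 tested sugar and lactate genes, 1 rose (Ldhb), 0 fell and 20 did not pass, and of 12 tested hypoxia genes 0 passed in either direction (limma, Benjamini-Hochberg adjusted p under 0.05; 3 and 1 had an unadjusted p under 0.05). Over all genes 4.28% passed, 2.94% higher and 1.34% lower in KO, so 1 of 33 (3.03%) is not above the background. The sugar and lactate genes had a median log2 fold change of -0.13 and the hypoxia genes one of 0.14, beside -0.024 for all genes tested. The hypoxia median was negative in the values as deposited (-0.097) and after centring each array on its median (-0.059), when the median of all genes was -0.23 and -0.19. In 9 of the 21 sugar and lactate genes and in 0 of the 12 hypoxia genes both KO clones read below both WT clones, beside 29.7% of all genes and 8 of the 16 pluripotency markers. Both KO clones read above both WT clones in 2 of the 21 and in 3 of the 12, beside 25.9% of all genes. The 95% confidence interval of the fold change lay within 2-fold in either direction for 29 of the 33 genes. The exceptions were Pfkl, Ldhb, Vegfa and Ndrg1.

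**Figure D1:**
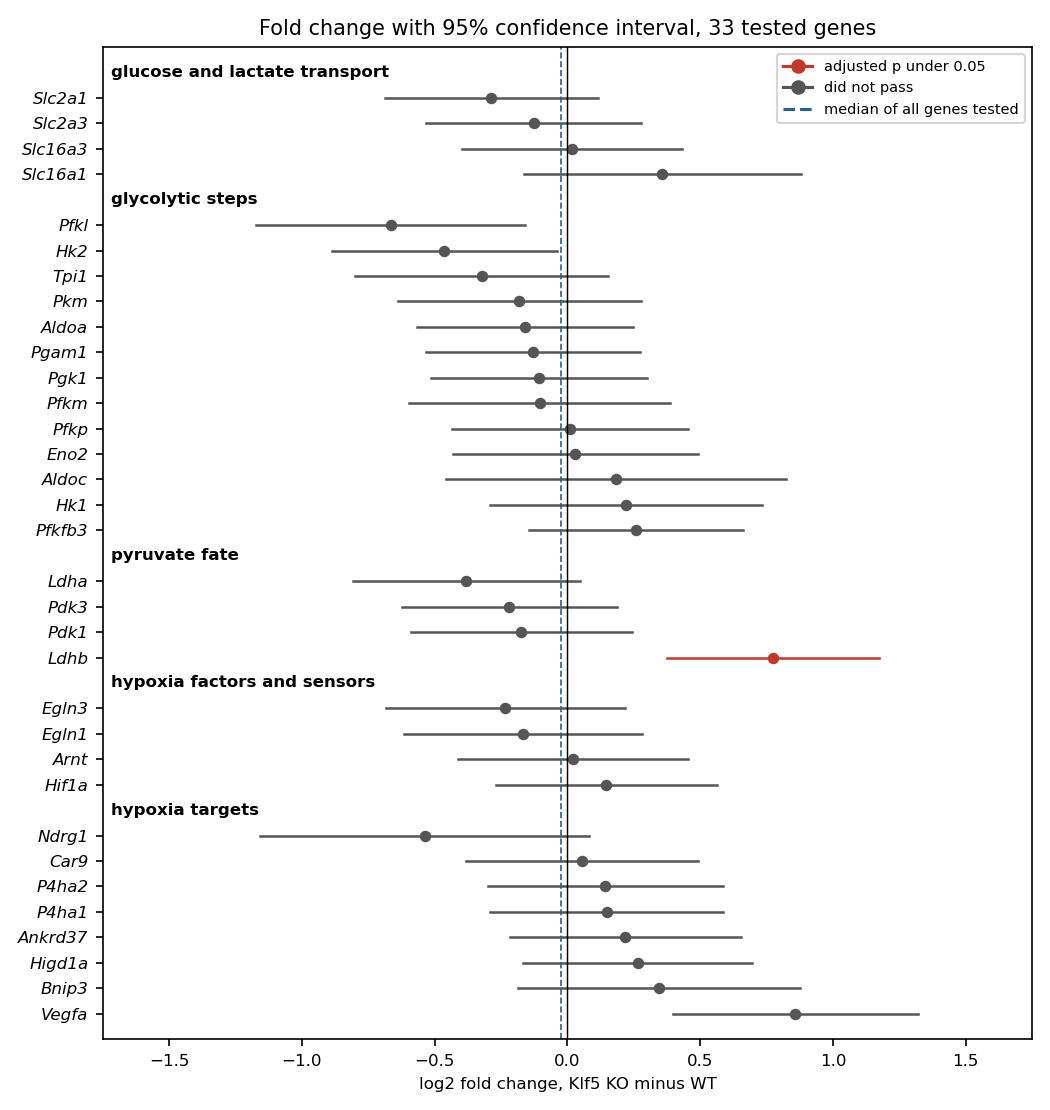
Log2 fold change of Klf5 KO minus WT (x axis) for each of the 33 tested genes, grouped by role, with points at the limma estimate and bars for the 95% confidence interval (2 clones per group). Ldhb alone is coloured as passing the adjusted p threshold of 0.05, Pfkl at -0.67 and Vegfa at 0.86 mark the ends of the range, and the dashed line is the median of all genes tested, -0.024.

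The transport genes carry glucose in and lactate out, and 0 of 4 passed (limma; 0 also at an unadjusted p under 0.05). Slc2a1, the ubiquitous glucose transporter GLUT1, read 4247 and 4252 in KO clones, against 5056 and 5329 in WT clones. Both KO clones were below both WT clones, with a log2 fold change of -0.29 ± 0.18 (SE, n = 2 clones per group; limma, adjusted p = 0.40). Its other probe sets had -0.41 and -0.28, also without overlap of the groups. Slc2a3, the high-affinity glucose transporter GLUT3, read 5322 and 5648 in KO clones, against 5789.6 and 6187 in WT clones, with -0.13 ± 0.18 (adjusted p = 0.74). The size depended on the probe set: 2 dimmer ones had -0.70 (adjusted p = 0.090) and -0.64 (adjusted p = 0.12), and on all 4 probe sets both KO clones were below both WT clones. Slc16a1, the monocarboxylate transporter MCT1, had 0.36 ± 0.23 with overlapping groups (1566 and 1746 in KO clones, 1589.9 and 1041 in WT clones). It was 0.66 without WT clone 1, 0.056 without WT clone 2 and 0.037 in the values as deposited. Slc16a3, the lactate exporter MCT4, had 0.019 ± 0.18.

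Of the 13 tested genes for the steps from hexokinase to pyruvate kinase, 0 rose and 0 fell (limma; 2 had an unadjusted p under 0.05, Pfkl and Hk2). Their log2 fold changes ran from -0.67 to 0.26. Pfkl, the liver type of phosphofructokinase, had the most negative value: it read 843 and 1037 in KO clones, against 1254 and 1777 in WT clones. The groups did not overlap, but WT clone 2 was far above WT clone 1, and the log2 fold change of -0.67 ± 0.22 did not pass (95% confidence interval -1.17 to -0.16, adjusted p = 0.14). Without WT clone 2 it was -0.42. A second bright probe set gave -0.70 (adjusted p = 0.12), while a dim one had 0.38 (adjusted p = 0.49). Pfkl passed with a pseudocount of 64 (adjusted p = 0.049), with a variance trend (0.043) and after centring on the median (-0.99, adjusted p = 0.0070). After centring, limma gave every probe set the same SE (0.27), so that p-value took nothing from Pfkl's own clone spread. Pfkl passed in no other of the 13 alternative runs. The mean of its probe sets gave -0.33 (limma, adjusted p = 0.26). A pseudocount of 1 gave an adjusted p of 0.27, and no filter gave 0.28. The other phosphofructokinase genes, Pfkp of platelet type and Pfkm of muscle type, had 0.011 ± 0.20 and -0.10 ± 0.22 with overlapping groups. Hk2, the inducible hexokinase, read 952 and 1117 in KO clones, against 1357 and 1504 in WT clones. Its groups did not overlap, and the log2 fold change was -0.46 ± 0.19 (95% confidence interval -0.89 to -0.039, adjusted p = 0.21). Hk1, the constitutive hexokinase, had 0.22 ± 0.23 with overlapping groups. Pfkfb3, which makes the activator fructose 2,6-bisphosphate, was the only one of the 13 whose KO clones both read above the WT clones (72.1 and 77.9 in KO clones, 59.2 and 61.0 in WT clones), at 0.26 ± 0.18 (adjusted p = 0.45), and a dimmer probe set had -0.085.

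None of the remaining steps passed, and their log2 fold changes lay between -0.32 and 0.18. Pkm, pyruvate kinase, read 4598 and 6008 in KO clones, against 5648 and 6294 in WT clones, with -0.18 ± 0.20 and an overlap through KO clone 2. Aldoa (aldolase), Tpi1 (triose phosphate isomerase), Pgk1 (phosphoglycerate kinase) and Pgam1 (phosphoglycerate mutase) had log2 fold changes of -0.16, -0.32, -0.11 and -0.13, with adjusted p from 0.42 to 0.78. For Aldoa and Pgam1 both KO clones were below both WT clones, while Tpi1 and Pgk1 overlapped between the groups. For Aldoa this held on 1 of 5 probe sets, all of them _x_at (a suffix that marks probes able to match other transcripts), and the other 4 overlapped with values from -0.090 to 0.098. Tpi1 ran from -0.52 without WT clone 1 to -0.12 without WT clone 2. The neural isoenzymes Aldoc and Eno2 had 0.18 and 0.030, and Eno2 was dim, with 29.8 and 18.3 in KO clones and 24.4 and 21.4 in WT clones. Gapdh, glyceraldehyde-3-phosphate dehydrogenase, was measured by 3 control probe sets, which were not tested. On the one at its 3′ end it read 6941 and 8431 in KO clones, against 7916 and 8260.2 in WT clones, a log2 difference of -0.080, with -0.091 at the 5′ end.

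Ldhb rose without Klf5. It encodes the H subunit of lactate dehydrogenase, the form that prevails in heart and in tissues that take up lactate. The intensity was 2354 and 2346 in KO clones, against 1378 and 1356 in WT clones, so the groups were far apart and the clones of each nearly equal. The log2 fold change was 0.78 ± 0.18 (95% confidence interval 0.38 to 1.17), a 1.71-fold difference (limma, adjusted p = 0.049). On all 4 probe sets of Ldhb both KO clones read above both WT clones, at 0.78, 0.67, 0.66 and 0.59, but the other 3 did not pass (adjusted p = 0.11, 0.080 and 0.11). The size held with any array left out (0.76 to 0.79), while the call did not (adjusted p of 0.11 at best, without KO clone 2, and of 0.19 at worst, without KO clone 1). It was lost as well with a pseudocount of 1 (adjusted p = 0.15) and with no filter (0.12). The unnormalized values gave 0.47 (adjusted p = 0.73), and centring on the median gave 0.51 (adjusted p = 0.25). In both of these runs limma gave every probe set the same SE (0.38 and 0.27), so the p-values followed the fold change alone. In the same arrays 21 of 25 fibroblast markers rose, beside 2.94% of all genes. The median over the list was 1.69, and a link to Ldhb was not tested.

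Ldha, the M subunit of the same enzyme, which prevails in glycolytic cells, had a fold change of the other sign. It read 4705 and 5553 in KO clones, against 6294 and 7047 in WT clones, and both KO clones were below both WT clones. The log2 fold change was -0.38 ± 0.19 (95% confidence interval -0.81 to 0.048, adjusted p = 0.30), so it did not pass, and it ran from -0.52 to -0.26 over the alternatives. The intervals of Ldha and Ldhb did not overlap, although the difference between the 2 genes was not tested. Pdk1, a pyruvate dehydrogenase kinase and HIF target, read 1866 and 1602 in KO clones, against 1926 and 1979 in WT clones, with -0.17 ± 0.18 (adjusted p = 0.64). Pdk3, another kinase of that family, had -0.22 ± 0.18 (342 and 337.5 in KO clones, 382 and 415 in WT clones). Both read lower in both KO clones on these probe sets. For Pdk1 another bright probe set overlapped between the groups (-0.083), while a dimmer one did not (-0.46).

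**Figure D2:**
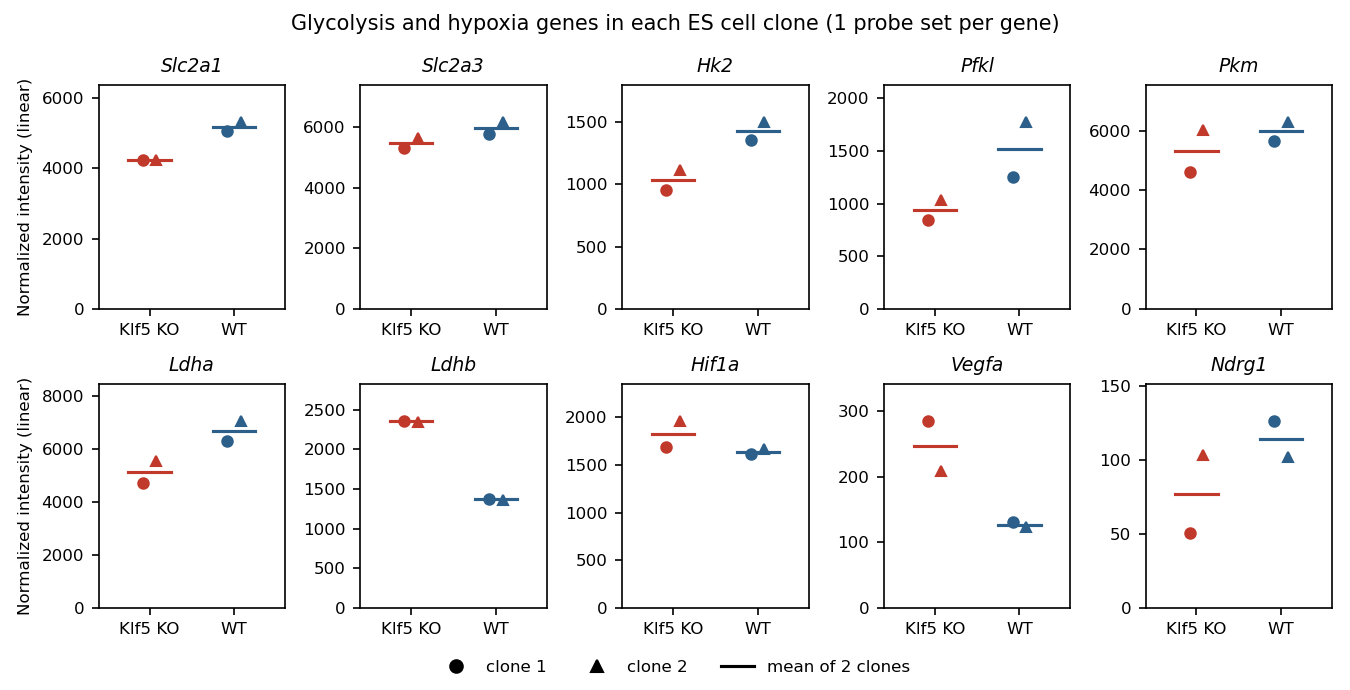
Normalized intensity (y axis, linear, from 0) of 10 genes in each clone, Klf5 KO left and WT right in each panel, with circles for clone 1, triangles for clone 2 and a line at the mean. Ldhb at 2354 and 2346 in KO clones lies above 1378 and 1356 in WT clones and Ldha, Hk2, Pfkl, Slc2a1 and Slc2a3 lie below WT in both KO clones, while Ndrg1 and Pkm overlap.

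The genes of the oxygen sensor itself did not pass (0 of 4, limma, and 0 at an unadjusted p under 0.05). Hif1a, the regulated subunit of HIF-1, read 1686 and 1961 in KO clones, against 1614 and 1669 in WT clones. Both KO clones were above both WT clones, narrowly, with a log2 fold change of 0.15 ± 0.18 (adjusted p = 0.70). It was negative in the values as deposited (-0.19) and after centring on the median (-0.15), when the median of all genes was -0.23 and -0.19. The 2 other tested Hif1a probe sets had 0.22 and -0.048. Arnt, its constitutive partner, read 171 and 188 in KO clones, against 196 and 159 in WT clones, with 0.020 ± 0.19. Egln1, the main prolyl hydroxylase that senses oxygen, read 90.7 and 117 in KO clones, against 108 and 128 in WT clones, with -0.17 ± 0.20 (adjusted p = 0.68) and overlapping groups.

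Egln3, a prolyl hydroxylase that is itself a HIF target, gave different answers on its 2 probe sets. The brighter one read 105 and 139 in KO clones, against 137 and 153 in WT clones, with overlapping groups and -0.23 ± 0.20 (adjusted p = 0.54). The dimmer one read 13.1 and 23.3 in KO clones, against 49.2 and 55.6 in WT clones, and fell by 1.01 ± 0.21 on the log2 scale (limma, adjusted p = 0.033). Its KO values lie near 13.05, the intensity at which dim probe sets were filtered out, and its call was lost with any array left out (adjusted p of 0.053 at best, without KO clone 2, and of 0.19 at worst, without KO clone 1).

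Of 8 tested HIF target genes 0 passed (limma; 1 had an unadjusted p under 0.05, Vegfa), and 7 of the 8 had a positive fold change. Of these 7, 4 turned negative in the values as deposited, where the median of all genes was -0.23. Vegfa, the growth factor for blood vessels and the best-known HIF target, came closest. It read 284 and 208 in KO clones, against 131 and 123 in WT clones, so that the groups did not overlap and KO clone 1 was the highest. The log2 fold change was 0.86 ± 0.20 (95% confidence interval 0.40 to 1.32), 1.81-fold, with adjusted p = 0.057. A dimmer probe set read 80.4 and 81.9 in KO clones, against 53.4 and 73.4 in WT clones, with 0.30 (adjusted p = 0.42). Vegfa passed with a filter at the 60th percentile (adjusted p = 0.027), a pseudocount of 64 (0.019), a variance trend (0.020) or the clone number as a block (0.036). It passed in no other of the 13 alternative runs, among which its adjusted p reached 0.63 (limma). The log2 fold change ran from 0.58 to 1.07 over all 13, and from 0.65 to 1.07 with an array left out. In these arrays 21 of 25 fibroblast markers rose, beside 2.94% of all genes, and a link to Vegfa was not tested.

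None of the other HIF targets passed on the probe set used in the counts, and all but Ndrg1 had a positive fold change there. Ndrg1, a stress-induced cytosolic protein, had a negative fold change: on the probe set used in the counts it read 50.7 and 103 in KO clones, against 126 and 102 in WT clones, with -0.54 ± 0.27 (adjusted p = 0.31) and an overlap through KO clone 2. Leaving out KO clone 1 gave -0.12, and leaving out KO clone 2 gave -0.96. Its 4 other probe sets had both KO clones below both WT clones, and 2 of them fell: one read 28.9 and 53.6 in KO clones, against 94.2 and 103 in WT clones (-1.03 ± 0.23, adjusted p = 0.047). The other, an _x_at probe set, read 61.8 and 78.9 in KO clones, against 147 and 160.4 in WT clones (-0.98 ± 0.19, adjusted p = 0.027). The mean of the 5 probe sets passed at -0.75 (adjusted p = 0.025). Both single calls were lost without KO clone 1 (adjusted p = 0.22 and 0.17), without WT clone 1 (0.11 and 0.078) and without WT clone 2 (0.13 and 0.11).

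Bnip3, a mitophagy receptor, had 0.34 ± 0.23 with overlapping groups (1541 and 1219.8 in KO clones, 884 and 1311 in WT clones). It was 0.064 without WT clone 1, 0.62 without WT clone 2 and 0.0019 in the values as deposited. Higd1a, a mitochondrial protein induced by hypoxia, read 2394 and 1948 in KO clones, against 1745 and 1847 in WT clones, with 0.26 ± 0.19 (adjusted p = 0.47) and no overlap. The remaining targets were Ankrd37, an ankyrin repeat protein, P4ha1 and P4ha2, subunits of the collagen prolyl hydroxylase, and Car9, a surface carbonic anhydrase. They had log2 fold changes of 0.22, 0.15, 0.14 and 0.054 with overlapping groups, and Car9 was dim, at 15.3 and 20.03 in KO clones and 13.6 and 19.4 in WT clones. Among the 24 tested genes with ACGTG in at least 1 promoter window the median log2 fold change was 0.037, and among the 7 without it 0.011.

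Across the list, 77 probe sets carried these symbols, 72 were bright enough to be tested and 4 passed, 1 higher and 3 lower (5.56%, beside 3.69% of all probe sets, of which 2.44% were higher and 1.25% lower). Of all probe sets, 28.4% had both KO clones below both WT clones and 23.9% had both above. The 4 belonged to Ldhb, Egln3 and Ndrg1. In 19 genes with several tested probe sets, 9 had probe sets of both signs. The probe sets of Slc2a1, Slc2a3, Ldhb and Ndrg1 kept 1 sign each, as did those of Egln1, Egln3, Higd1a, Pdk1, Tpi1 and Vegfa.

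**Figure D3:**
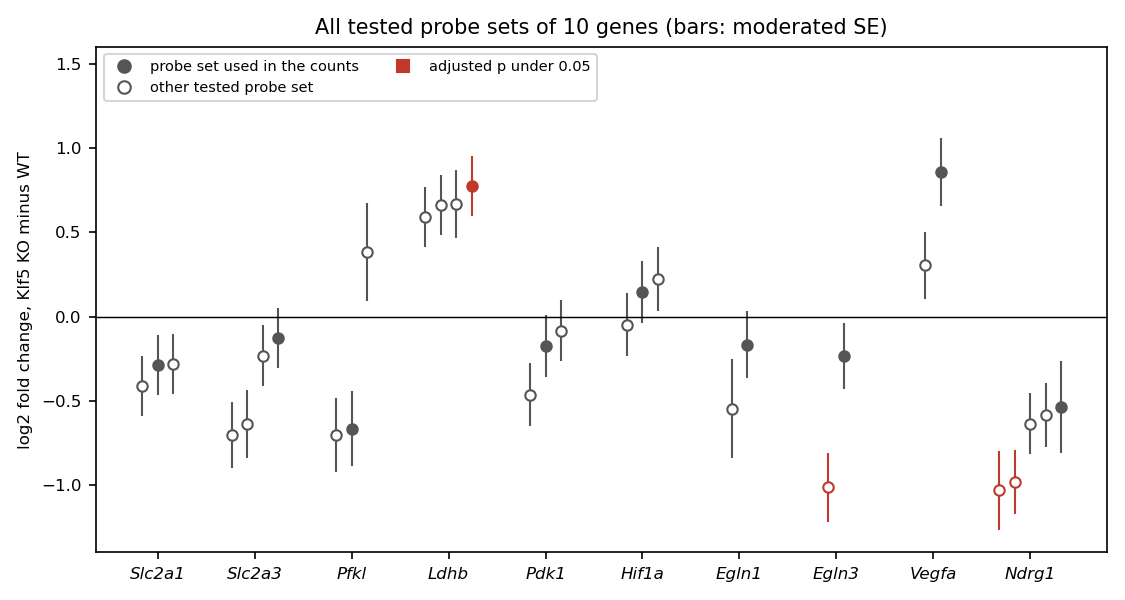
Log2 fold change of Klf5 KO minus WT (y axis) for every tested probe set of 10 genes, with bars for the moderated SE, filled points for the probe set used in the counts, open points for the others and red for an adjusted p under 0.05. The 4 Ldhb probe sets lie between 0.59 and 0.78, those of Ndrg1 between -1.03 and -0.54, and Egln3 is split between -1.01 and -0.23.

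Among the genes around the core pathway, Gpd2 and Eno3 fell and Fbp2 rose. Of 52 tested genes for glycogen, the pentose phosphate route, gluconeogenesis, pyruvate entry and other isoenzymes, 1 rose, 2 fell and 49 did not pass (5.77%, beside 4.28% of all genes), and the median was -0.010. Gpd2, the mitochondrial glycerol-3-phosphate dehydrogenase that passes electrons of cytosolic NADH to the respiratory chain, read 416 and 528 in KO clones, against 1221 and 938 in WT clones. It fell by 1.16 ± 0.21 (2.24-fold; limma, adjusted p = 0.021), and its other tested probe sets had -1.12 (adjusted p = 0.021) and -1.03 (adjusted p = 0.079). Eno3, the muscle enolase, read 90.8 and 129 in KO clones, against 251 and 260.0 in WT clones, and fell 2.18-fold (-1.13 ± 0.20, adjusted p = 0.021). Fbp2, the muscle fructose bisphosphatase of gluconeogenesis, rose to 268 and 231 in KO clones, against 96.6 and 128 in WT clones (1.06 ± 0.20, adjusted p = 0.025). Without KO clone 1 or without WT clone 1 none of these 3 passed (limma, adjusted p from 0.065 to 0.16), without KO clone 2 only Eno3 did, and without WT clone 2 only Fbp2 and Gpd2. Fbp2 also failed in the values as deposited (0.80, adjusted p = 0.43), where limma gave every probe set the same SE (0.38). Ugp2, which makes UDP-glucose for glycogen, had 0.70 ± 0.18 (adjusted p = 0.068; 1016 and 998 in KO clones, 615 and 613 in WT clones), and 2 of its other probe sets passed, at 0.97 (adjusted p = 0.022) and 0.81 (adjusted p = 0.046).

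Of 59 further tested genes of the hypoxia pathway, 2 rose, 1 fell and 56 did not pass (5.08%, beside 4.28%), with a median of 0.00036. Lox, lysyl oxidase, a HIF target that cross-links collagen, rose to 366 and 463 in KO clones, against 30.2 and 23.6 in WT clones (3.32 ± 0.20, adjusted p = 7.9e-05), and passed under every alternative run. Lox is also on the fibroblast marker list, of which 21 of 25 rose, beside 2.94% of all genes. Cxcl12, a chemokine of stromal cells, rose to 61.7 and 47.3 in KO clones, against 17.4 and 12.6 in WT clones (1.18 ± 0.20, adjusted p = 0.015). Its WT values were near the filter intensity of 13.05, and it failed without KO clone 1 (adjusted p = 0.12) and without WT clone 2 (0.064). Lonp1, a mitochondrial protease, read 294 and 325 in KO clones, against 699.5 and 553 in WT clones, and fell by 0.97 ± 0.20 (adjusted p = 0.031), a call lost without KO clone 1, KO clone 2 or WT clone 1 (adjusted p between 0.085 and 0.18). Epas1, HIF-2 alpha, had -0.72 ± 0.24 (adjusted p = 0.14) and read 237 and 305 in KO clones, against 560.4 and 365 in WT clones, without overlap.

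**Figure D4:**
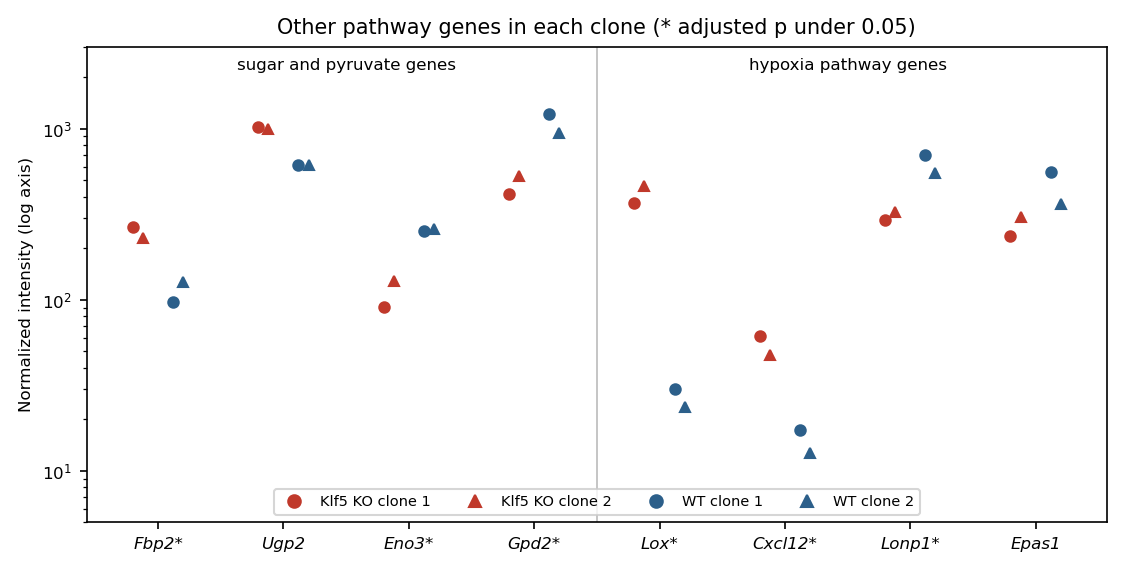
Normalized intensity (y axis, log scale) of 8 other pathway genes in each clone, red for Klf5 KO on the left and blue for WT on the right of each pair, circles for clone 1 and triangles for clone 2, with a star where the adjusted p was under 0.05. Gpd2, Eno3 and Lonp1 lie lower in both KO clones, Fbp2, Lox and Cxcl12 higher, and Ugp2 and Epas1 do not overlap between groups but did not pass.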

How the data were processed

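Total RNA of 2 Klf5 KO and 2 WT clones was labelled with biotin and hybridised to Affymetrix arrays, per the labels. The authors deposited 1 linear intensity per probe set and array (45101 rows, 64 of them controls). How it was summarised, background-corrected or scaled was not given in the sources used here. Trimmed means (2% off each end) differed by up to 1.65 times, over the 5% allowed, so arrays were quantile normalized and analysed as log2(intensity + 16), a scale that understates the fold changes of dim genes. Control probe sets and those with a mean under the 40th percentile (intensity 13.05) were left out, leaving 27022. KO was compared with WT by limma 3.58.1 in R 4.3.3 (lmFit, eBayes; 2 residual and 6.87 prior degrees of freedom) with Benjamini-Hochberg adjustment over all of them. The fit was tested on simulated data. Errors are moderated SE, and the number of arrays limits the precision. P-values rest on the spread between clones, but limma draws each probe set's spread towards a value shared by all of them. With 6.87 prior against 2 residual degrees of freedom, that shared value weighs more than a gene's own clones. For Ldhb the SE of 0.18 stands beside clone SDs of 0.0035 (KO) and 0.016 (WT) on the log2 scale. Nothing says how separate the cultures of the clones were.

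Rows with exactly 1 platform symbol were named (34945, with 932 naming several and 9160 none). For counts of genes, the tested probe set with the highest mean stood for its gene, _x_at last. Members and lists were chosen with earlier results of these data known. Named genes were every member, with values per clone for those that passed, the 2 largest per role and the main sensors, isoenzymes and transporters, and other pathway genes that passed, filled to 2 each way by size. The numbers of the clones are only names: the deviations of same-numbered clones correlated at 0.055. Promoters came from RefSeq (GRCm38.p6).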

Additional observations from a re-analysis of the deposited data

How the results depend on the processing

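With 2 clones per group, calls near the threshold depended on the settings. Without normalization and after centring, limma gave every probe set the same SE, so p-values in those runs followed the fold change alone. The 996 probe sets past the threshold (659 higher and 337 lower in KO) became 189 with a pseudocount of 1, 2060 with one of 64, 190 with no filter, 332 without normalization, 2060 after centring on the median (640 higher and 1420 lower), 1955 with a variance trend, and 213 (without KO clone 1) to 572 (without WT clone 1) with an array left out. Of the sugar and lactate genes 0 passed with a pseudocount of 1, with no filter and in the values as deposited, 0 with any array left out, and 2 (Ldhb and Pfkl) with a pseudocount of 64 and with a variance trend. After centring, Pfkl passed and Ldhb did not. Of the hypoxia genes 1 passed with the stricter filter (60th percentile), a pseudocount of 64, a variance trend or the clone number as a block (Vegfa in each), and 1 with probe sets averaged per gene (Ndrg1).

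The median of the sugar and lactate genes was -0.33 in the values as deposited and -0.30 after centring, and -0.19 to -0.078 with an array left out. That of the hypoxia genes was -0.097 and -0.059, and 0.039 to 0.23, while the median of all genes moved to -0.23 and -0.19. Of the other sugar genes 0 passed with a pseudocount of 1 and with no filter, 7 with one of 64, 5 with the stricter filter, 2 (Eno3 and Gpd2) without normalization, 7 after centring, 6 with a variance trend, 8 with the mean of probe sets and 0 to 2 with an array left out. Of the other hypoxia genes 1 passed with a pseudocount of 1, with no filter and in the values as deposited, 5 with a pseudocount of 64, after centring and with a variance trend, 8 with the mean of probe sets and 1 to 2 with an array left out. The block on clone number gave 1390 probe sets, left the sugar and lactate count at 1 and changed, among the genes named here, only the call of Vegfa (adjusted p = 0.036). Eno2 and Car9 gave no value under the stricter filter.

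Signs turned for genes near 0, none of which passed. In the values as deposited Slc16a3 had -0.25, Hk1 -0.11, Pfkp -0.33, Aldoc -0.067, Eno2 -0.020, Hif1a -0.19, Arnt -0.25, Ankrd37 -0.036, Higd1a -0.040, P4ha1 -0.090 and P4ha2 -0.10. After centring Slc16a3 had -0.21, Hk1 -0.068, Pfkp -0.30, Aldoc -0.030, Hif1a -0.15, Arnt -0.22, Higd1a -0.0025, P4ha1 -0.052 and P4ha2 -0.066. Pfkp had -0.0026 with the mean of its probe sets. With an array left out the range was -0.081 to 0.12 for Slc16a3, -0.029 to 0.47 for Hk1, -0.17 to 0.19 for Pfkp, -0.32 to 0.11 for Pfkm, -0.22 to 0.59 for Aldoc, -0.18 to 0.24 for Eno2, -0.37 to 0.011 for Pkm, -0.12 to 0.16 for Arnt, -0.075 to 0.18 for Car9 and -0.035 to 0.32 for P4ha2. The median of all genes was -0.23 in the values as deposited and -0.19 after centring, beside -0.024 in the main run. The cause of the turned signs was not tested.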
